A study of Homo sapiens with 10 samples.

Results

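The genes described here are the integrin and laminin genes of the human genome. They were chosen by symbol alone, as every protein-coding gene of the GENCODE v44lift37 annotation named as an integrin alpha or beta subunit or as a laminin alpha, beta or gamma chain. The rule found 38 genes among the 20098 protein-coding genes of chromosomes 1 to 22 and X. They comprise 26 integrin genes, of which 7 encode subunits found mainly on leukocytes and 19 do not, and 12 laminin genes.

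The study mapped histone marks and open chromatin in MDAMB231, an established breast cancer cell line of mesenchymal-like, triple-negative type, grown without treatment. ChIP-seq was done for trimethylated lysine 4 of histone H3 (H3K4me3), for its monomethylated form (H3K4me1) and for acetylated lysine 27 (H3K27Ac), with 2 libraries for each mark and 1 ChIP input library. Open chromatin was mapped by FAIRE-seq, which sequences the DNA that formaldehyde leaves free of protein, with 2 libraries and 1 input library. The authors combined the replicates of an assay, so each assay gives 1 list here and no value below has an error between replicates, and the read depth behind each list is not stated in it. The lists hold 18019 H3K4me3 peaks, 37495 H3K27Ac peaks, 26771 H3K4me1 peaks and 46552 FAIRE peaks, with median widths of 2524, 2664, 3041 and 913 bases. The peaks called on histone marks carry a MACS score, which is -10 times the log10 of the p-value of ChIP against input, so that a score of 100 stands for a p of 1e-10. Scores reached 3100 or more in 56.8% of the H3K4me3 peaks and 10.5% of the H3K27Ac peaks, and the score was exactly 3100 in 10066 and 3670 of them. Whether 3100 is a ceiling of the caller was not settled here, so it is read below as a score of at least that size, and such peaks are not ranked by score. FAIRE peaks carry a height, the depth of overlapping extended reads at the summit, with a median of 61.1.

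Integrins are receptors that span the plasma membrane as pairs of an alpha and a beta subunit and tie the cytoskeleton to the extracellular matrix or to other cells. Laminins are trimers of an alpha, a beta and a gamma chain, and they form the network on which epithelial cells of the breast rest, the basement membrane, where integrins bind them. At active genes H3K4me3 and H3K27Ac typically flank the start site, whereas H3K4me1 with H3K27Ac and open chromatin typically marks enhancers away from it.

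Promoter DNA differed among the genes in its content of CpG, the dinucleotide CG that vertebrate genomes have mostly lost outside unmethylated islands. The 250 bases before the start site of 3 genes are printed to show this, chosen to differ in CpG content and H3K4me3 state. The start is that of the MANE Select transcript, the 1 transcript a gene that Ensembl and RefSeq share as its representative, called the MANE start below. A promoter was called CpG-rich where the ratio of observed to expected CG, over 500 bases to each side of the start, was 0.6 or more, and CpG-poor otherwise. All sequences are from the reference genome, build hg19 (GRCh37), and run 5′ to 3′ on the strand of the gene, with every CG in capitals. The regions of LAMB3, at chr1:209825771-209826020, and of ITGA8, at chr10:15761922-15762171, lie on the minus strand and that of LAMC1 on the plus strand at chr1:182992305-182992554.
LAMB3, CpG-poor and with H3K4me3: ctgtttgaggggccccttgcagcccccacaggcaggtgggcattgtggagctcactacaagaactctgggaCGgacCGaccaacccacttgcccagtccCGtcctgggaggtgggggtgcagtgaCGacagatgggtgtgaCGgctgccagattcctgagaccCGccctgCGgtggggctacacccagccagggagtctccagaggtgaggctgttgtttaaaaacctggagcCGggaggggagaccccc
ITGA8, CpG-rich and without H3K4me3: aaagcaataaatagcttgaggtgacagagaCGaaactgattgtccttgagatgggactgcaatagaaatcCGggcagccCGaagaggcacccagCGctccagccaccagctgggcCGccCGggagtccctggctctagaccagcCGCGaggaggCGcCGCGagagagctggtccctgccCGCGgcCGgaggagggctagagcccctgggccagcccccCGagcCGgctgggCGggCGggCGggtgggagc
LAMC1, CpG-rich and with H3K4me3: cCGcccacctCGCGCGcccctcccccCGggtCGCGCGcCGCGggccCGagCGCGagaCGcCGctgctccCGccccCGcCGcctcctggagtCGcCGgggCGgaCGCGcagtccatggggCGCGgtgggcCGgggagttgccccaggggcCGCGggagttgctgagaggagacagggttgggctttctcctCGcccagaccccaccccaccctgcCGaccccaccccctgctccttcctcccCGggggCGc
The stretch before LAMB3 held 8 CG, against 19 before ITGA8 and 32 before LAMC1. The median over the 18878 protein-coding genes with a MANE start was 18.0.

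Away from the start sites, 4 open elements near these genes are printed for the motif they hold and because 2 of them lie near genes whose own MANE start carried no peak, ITGA11 and ITGB6. The motif searched was TGACTCA, the core recognised by AP-1 factors, on both strands, so that its reverse complement TGAGTCA counts as well. Each run below is the central 300 bases of a FAIRE peak that shares sequence with H3K27Ac and H3K4me1 peaks and with no H3K4me3 peak, on the plus strand of hg19 with the motif letters in capitals. For each gene it is the tallest such peak away from coding start sites that holds the letters and touches no annotated exon. The element of ITGA11 lies at chr15:68647361-68647660, that of ITGB6 at chr2:161064598-161064897, that of ITGA6 at chr2:173306743-173307042 and that of LAMA3 at chr18:21299787-21300086. These elements were chosen after their values were seen.
ITGA11, intron: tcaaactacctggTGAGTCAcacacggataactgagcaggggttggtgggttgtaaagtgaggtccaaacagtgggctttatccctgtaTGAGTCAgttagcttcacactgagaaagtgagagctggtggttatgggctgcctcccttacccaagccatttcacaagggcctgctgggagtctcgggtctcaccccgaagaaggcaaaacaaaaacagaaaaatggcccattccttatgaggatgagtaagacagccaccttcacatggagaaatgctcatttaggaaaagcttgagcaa
ITGB6, upstream of the gene: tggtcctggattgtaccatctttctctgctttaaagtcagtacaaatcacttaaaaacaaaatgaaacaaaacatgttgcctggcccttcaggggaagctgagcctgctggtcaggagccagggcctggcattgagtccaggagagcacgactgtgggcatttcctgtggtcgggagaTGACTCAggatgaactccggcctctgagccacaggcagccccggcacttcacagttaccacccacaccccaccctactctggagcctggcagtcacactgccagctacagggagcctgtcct
ITGA6, intron: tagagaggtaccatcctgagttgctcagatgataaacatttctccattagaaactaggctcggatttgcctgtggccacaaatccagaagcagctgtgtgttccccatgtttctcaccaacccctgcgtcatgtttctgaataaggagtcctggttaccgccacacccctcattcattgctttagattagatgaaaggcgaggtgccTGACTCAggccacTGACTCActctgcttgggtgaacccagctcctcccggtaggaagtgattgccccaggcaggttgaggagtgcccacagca
LAMA3, intron: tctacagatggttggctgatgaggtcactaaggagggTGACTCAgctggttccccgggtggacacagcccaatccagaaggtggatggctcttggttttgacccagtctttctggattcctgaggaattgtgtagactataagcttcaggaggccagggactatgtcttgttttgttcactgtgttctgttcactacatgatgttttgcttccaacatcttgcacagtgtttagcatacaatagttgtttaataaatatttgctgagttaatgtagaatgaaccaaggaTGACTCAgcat
The FAIRE heights of these peaks were 127 for ITGA11, 103 for ITGB6, 111 for ITGA6 and 111 for LAMA3. Their centres lay at 77.0, -7.96, 14.6 and 30.5 kb from the MANE start, where negative distances are upstream.

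The mesenchymal and basal markers of the cell line were marked throughout, and some genes of other cell types were marked too. All 6 mesenchymal and basal markers (VIM, AXL, CD44, EGFR, ZEB1 and CAV1) had both H3K4me3 and H3K27Ac at the MANE start. The exact Clopper-Pearson interval of that share, 54.1 to 100%, spans the 59.3% of all genes with both marks at the MANE start. So few genes do not set the markers apart from all genes. Of 6 epithelial or luminal genes, taken as genes that should lack active promoter marks in this line, 1 had both, namely EPCAM with scores of 3100 and 509, while ESR1 and PGR had H3K4me3 alone, and CDH1, GATA3 and ELF5 had neither there, so that 3 of the 6 lacked both marks at the MANE start. At other starts GATA3 had H3K4me3 and H3K27Ac, and CDH1 had H3K27Ac and a FAIRE peak. Of 6 leukocyte genes, 2 had both, CORO1A with scores of 2480 and 206 and LCP1 with 853 and 323. CD14 had H3K4me3 alone, and PTPRC, SPI1 and CD3E, which define leukocytes and their lineages, had no peak of either mark at any start.

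Most of the integrin and laminin genes had promoters with H3K4me3 and H3K27Ac, in shares near those of all protein-coding genes. A promoter was counted as marked when a peak shared at least 1 base with any annotated start site of the gene widened by 1 kb to each side. H3K4me3 lay at a promoter of 27 of 38 genes (71.1%, exact Clopper-Pearson 95% interval 54.1 to 84.6), against 67.3% of all protein-coding genes. H3K27Ac lay at 26 of 38 (68.4%, 51.3 to 82.5), against 63.5%. FAIRE peaks lay at 14 of 38 (36.8%, 21.8 to 54.0), against 39.3%. These 3 intervals all span the share of all genes. H3K4me1 lay at 17 of 38 (44.7%, 28.6 to 61.7), against 20% (4027 of 20098), which lies below the interval. That count was 7 where the centre of the peak had to lie in the promoter (18.4%, 7.74 to 34.3), against 8.64% of all genes, and 10 where only the 5′ end of the annotated gene was taken as its start (26.3%, 13.4 to 43.1), against 11.9%. The first of these intervals spans the share of all genes and the second lies above it. At a MACS p of 1e-10 or less the count was 13 (34.2%, 19.6 to 51.4), against 11.2% of all genes. With starts of protein-coding transcripts only it was also 13, against 16.4% of all genes. Both of these shares of all genes lie below the interval. The intervals cover counting over genes only. Restricted to the MANE start, the counts were 22 for H3K4me3 against 65.7% of all genes, 21 for H3K27Ac against 60.6%, 9 for H3K4me1 against 12.5% and 9 for FAIRE against 31.9%. As shares of the 38 genes these counts were 57.9%, 55.3%, 23.7% and 23.7%, with intervals of 40.8 to 73.7, 38.3 to 71.4, 11.4 to 40.2 and 11.4 to 40.2. Each of these intervals spans the share of all genes. Both H3K4me3 and H3K27Ac lay at the MANE start of 20 of 38 genes (52.6%, 35.8 to 69.0), against 59.3% of all genes, while 14 genes had nothing from any list there (36.8%, 21.8 to 54.0), against 32.3%.

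**Figure D1:**
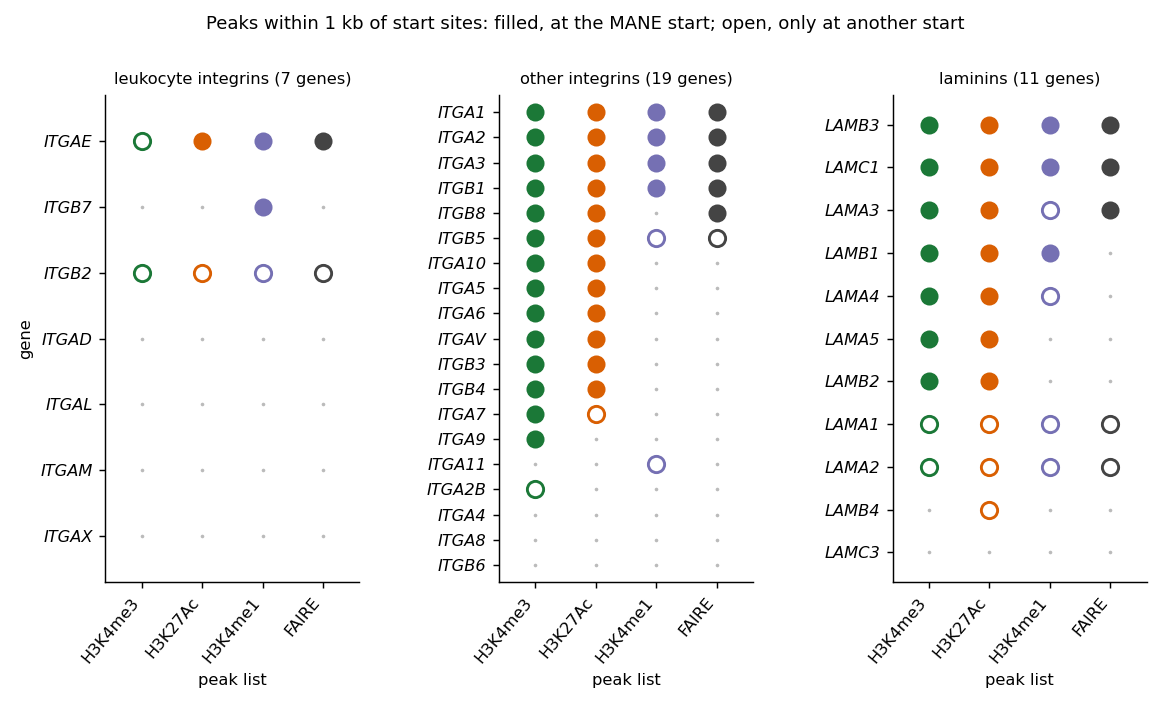
Presence of peaks from the 4 lists at the promoters of 37 of the 38 genes, 1 gene in each row and 1 list in each column, by group; filled circles mark a peak within 1 kb of the MANE start, open circles a peak at another start only. At the MANE start none of the 7 leukocyte integrins and 14 of 19 other integrins have a filled circle for H3K4me3.

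H3K4me3 and H3K27Ac lay at a smaller share of leukocyte integrin promoters than of other integrin promoters, while the order for H3K4me1 depended on which genes were counted as leukocyte integrins. H3K4me3 lay at any start of 2 of 7 leukocyte integrins (28.6%, 3.67 to 71.0), 15 of 19 other integrins (78.9%, 54.4 to 93.9) and 10 of 12 laminins (83.3%, 51.6 to 97.9). Each interval spans the 67.3% of all genes, and the leukocyte interval overlaps that of the other integrins. For H3K27Ac the counts were 2 of 7 (28.6%, 3.67 to 71.0), 13 of 19 (68.4%) and 11 of 12 (91.7%), against 63.5% of all genes. H3K4me1 lay at 3 of 7 leukocyte integrins (42.9%), 6 of 19 other integrins (31.6%) and 8 of 12 laminins (66.7%), and FAIRE peaks at 2 of 7 (28.6%), 6 of 19 (31.6%) and 6 of 12 (50%). Over all genes these shares were 20% for H3K4me1 and 39.3% for FAIRE. With only the beta-2 family as leukocyte integrins, which is ITGB2 with its 4 alpha partners, the H3K4me1 order turned, at 1 of 5 against 8 of 21 other integrins, and FAIRE peaks lay at 1 of 5 against 7 of 21. H3K4me3 then lay at 1 of 5 against 16 of 21 and H3K27Ac at 1 of 5 against 14 of 21, in the same order as before. At the MANE start, a setting added after the data were seen, H3K4me3 lay at 0 of 7 leukocyte integrins (0 to 41.0), 14 of 19 other integrins (73.7%, 48.8 to 90.9) and 8 of 12 laminins (66.7%, 34.9 to 90.1). The share of all genes there was 65.7%, above the leukocyte interval and within the other 2. None of the 4 lists reached the MANE start in 5 of 7, 5 of 19 and 4 of 12 genes, against 32.3% of all genes. With starts of protein-coding transcripts only, H3K4me3 lay at 1 of 7 leukocyte integrins. Genes are not replicates and no test between the groups was made.

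ITGB2, at chr21:46305868-46351904, encodes the beta subunit that the leukocyte integrins LFA-1 and Mac-1 share, and its marks all lay away from the MANE start. H3K4me3 peaks lay at -12.5 to -9.91 kb with a score of 3100 and at -8.45 to -5.90 kb with a score of 1058, where other coding transcripts of the gene begin. An H3K27Ac peak of 9140 bases and score 3100 covered both, from -12.7 to -3.57 kb, and another of 7859 bases and score 3100 lay at internal starts, most of them of coding transcripts, at 2.58 to 10.4 kb. ITGB2 was thus marked at upstream and internal starts but not where its representative transcript begins. H3K4me1 peaks of scores 315 and 233 covered the same stretches. FAIRE peaks there had heights of 77.1 and 32.8 upstream of the MANE start and of 67.6 and 49.4 downstream of it, all within the gene bounds.

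ITGAE, at chr17:3617922-3704482, encodes the alpha subunit of the E-cadherin receptor of intraepithelial T cells. Its MANE start met an H3K27Ac peak of score 336 at -2.96 to -0.008 kb, an H3K4me1 peak of score 155 at -3.79 to 0.928 kb and a FAIRE peak of height 58.9 at -1.74 to -0.856 kb, all of which also lie at a promoter of the neighbouring gene NCBP3. The peaks of H3K4me3 lay far inside the gene, with a score of 3100 at 75.4 to 78.7 kb and of 72.3 at 62.1 to 63.4 kb. The stronger of these also lies at the promoter of HASPIN, a kinase gene nested in ITGAE, so it cannot be told apart from a mark of that gene. The same holds for H3K27Ac of score 2936 at 75.7 to 78.8 kb and H3K4me1 of score 265 at 77.4 to 82.4 kb. At no promoter of another coding gene lay H3K27Ac of score 1187 at 79.0 to 82.4 kb and FAIRE peaks of height 73.1 at 80.0 to 81.4 kb and 76.9 at 62.9 to 63.7 kb, all at internal starts of ITGAE. ITGB7, at chr12:53585107-53601066, encodes the beta subunit that pairs with ITGAE. It had H3K4me1 without H3K4me3, in a single promoter peak of score 102 and 2533 bases at -0.292 to 2.24 kb.

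The alpha subunits that pair with ITGB2 had no promoter peak in any list. ITGAL, the alpha subunit of LFA-1 at chr16:30483979-30534888, lies among other active promoters. The gene widened by 50 kb to each side, called its window below, held 7 H3K4me3 peaks, 6 of them at promoters of other coding genes, and 8 H3K27Ac peaks, again with 6 at such promoters. Inside ITGAL itself lay an H3K27Ac peak of score 92.5 and a FAIRE peak of height 86.9, both centred at 19.2 kb. ITGAM, the alpha subunit of Mac-1 at chr16:31271288-31344213, had 1 peak in its window, H3K4me3 of score 1123 at the promoters of PYDC1 and TRIM72. ITGAX, the alpha subunit of CR4 at chr16:31366455-31394320, had 1 as well, H3K4me3 of score 170 at 49.2 kb. That peak lies inside the neighbouring ITGAD, the alpha-D subunit, at 11.1 kb from its start and away from its promoter. Of 5 H3K4me3 peaks in the window of ITGAD, 3 lay at promoters of other genes, ZNF843, ARMC5 and TGFB1I1. The windows of ITGAM, ITGAX and ITGAD overlap, so their peaks are not independent.

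The collagen receptors comprise ITGA1, ITGA2, ITGA10 and ITGA11, which all pair with ITGB1, and 3 of these 4 genes had both H3K4me3 and H3K27Ac at the MANE start. The share of all genes with both there was 59.3%, and a count over 4 genes does not set the collagen receptors apart from it. ITGA2, at chr5:52285170-52390609, had one of the widest H3K4me3 peaks of the set, 6389 bases from -1.54 to 4.85 kb with a score of 3100. H3K27Ac of score 3100 ran from -2.96 to 2.91 kb, H3K4me1 of score 428 from -6.21 to 0.21 kb, and a FAIRE peak of height 56.8 lay just upstream. ITGA1, which lies 30.1 kb from ITGA2 on the same strand, had all 4 as well, with scores of 3100 for H3K4me3, 1482 for H3K27Ac and 379 for H3K4me1 and a FAIRE height of 64.0. All of these peaks also lie at a promoter of PELO, so they cannot be told apart from marks of that gene. ITGA10, a collagen receptor of cartilage, was weakly marked, with an H3K4me3 score of 72.7 and an H3K27Ac score of 53.7. ITGA11, a collagen receptor of fibroblasts at chr15:68588870-68724502, had no mark at its MANE start and 1 promoter peak in all, H3K4me1 of score 52.2 and 3333 bases at an internal start 95.9 to 99.2 kb downstream.

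The laminin receptors comprise ITGA3, ITGA6 and ITGA7, which pair with ITGB1, and ITGB4, which pairs with ITGA6 in hemidesmosomes, the anchors of basal epithelial cells. Both H3K4me3 and H3K27Ac lay at the MANE start in 3 of these 4 genes, against 59.3% of all genes. So few genes do not set the laminin receptors apart from that share. ITGA3, at chr17:48133332-48167845, had an H3K4me3 peak of 8597 bases at -1.42 to 7.17 kb, and 52 of the 18019 H3K4me3 peaks were wider. Its H3K27Ac peak of 26380 bases, at -13.5 to 12.8 kb, was the widest at the promoter of any of the 38 genes, and 21 of 37495 peaks in that list were wider. H3K4me1 flanked the start in peaks of scores 642 and 193, and the FAIRE peaks had heights of 62.5 at the MANE start and of 110 and 69.7 at internal starts. ITGA3 thus lay in a broad acetylated domain with H3K4me1 to both sides of the start. ITGA6, at chr2:173292082-173371187, had H3K4me3 of score 3100 at -0.846 to 2.84 kb and H3K27Ac of score 2387 at -0.775 to 2.92 kb, with widths of 3685 and 3697 bases. ITGB4, at chr17:73717408-73753899, had H3K4me3 of score 3100 and 3985 bases at -1.44 to 2.54 kb and H3K27Ac of score 1169 and 4612 bases at -1.45 to 3.17 kb. Neither gene of this hemidesmosome receptor had an H3K4me1 or FAIRE peak at any start. ITGA7, the laminin receptor of muscle, had H3K4me3 of score 2012 alone at its MANE start. Its H3K27Ac peak, of score 860, lay with H3K4me3 of score 3100 at upstream starts of transcripts not typed as protein-coding, and both also lie at a promoter of BLOC1S1, so they cannot be told apart from marks of that gene.

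ITGB1, at chr10:33176201-33294720, encodes the beta subunit shared by 12 of the 24 integrin pairs, and all 4 assays marked it at separate start regions. Around the MANE start lay H3K4me3 of 5786 bases and score 3100 at -1.83 to 3.95 kb, H3K27Ac of 11268 bases and score 3100 at -6.43 to 4.83 kb, H3K4me1 of score 241 at -6.68 to -0.129 kb and a FAIRE peak of height 49.2. Around an upstream start lay H3K4me3 of score 641 at -48.3 to -46.2 kb, H3K27Ac of score 3100 at -53.5 to -44.9 kb and H3K4me1 of score 462 at -54.7 to -44.6 kb. The tallest FAIRE peak at any start of the gene, of height 111, lay in the upstream region.

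The receptors of the RGD peptide of fibronectin and vitronectin, here ITGA5, ITGA8, ITGA2B, ITGAV, ITGB3, ITGB5, ITGB6 and ITGB8, had both marks at the MANE start in 5 of 8 genes. That share is 62.5% (24.5 to 91.5), near the 59.3% of all genes. ITGA5, the alpha subunit of the fibronectin receptor, and ITGAV, the alpha subunit of the vitronectin receptors, had H3K4me3 of score 3100 with H3K27Ac of scores 3100 and 1177. ITGB5, a partner of ITGAV at chr3:124480795-124620265, had the tallest promoter FAIRE peak of the 38 genes, of height 136 at 7.38 to 8.95 kb, at an internal start. H3K27Ac of 12370 bases and score 2911 at -1.16 to 11.2 kb and H3K4me1 of 13062 bases and score 441 at 1.47 to 14.5 kb covered that FAIRE peak. H3K4me3 of score 3100 lay at -1.10 to 2.67 kb. ITGB8, which with ITGAV activates latent TGF-beta, had H3K4me3 of score 3100, H3K27Ac of score 1119 and a FAIRE height of 66.0. ITGB3, the beta subunit of the platelet and endothelial vitronectin receptors, had H3K4me3 of score 2925 and H3K27Ac of score 232, in peaks that also lie at a promoter of another annotated coding gene. The 3 others had a bare MANE start. Among them ITGA2B, the platelet partner of ITGB3, had H3K4me3 of score 1321 at an internal start at 3.08 to 5.15 kb, while ITGA8, a receptor of kidney and smooth muscle, and ITGB6, a partner of ITGAV in epithelia, had no promoter peak in any list. Of ITGA4 and ITGA9, which bind VCAM-1 and osteopontin among other ligands, ITGA9 had H3K4me3 of score 438 alone and ITGA4 had no promoter peak. ITGA4 is expressed on lymphocytes as well as other cells and was counted with the other integrins.

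Among the laminin genes, LAMA3 and LAMB3 encode chains of the laminin that anchors basal epithelial cells, and each had both marks at the MANE start. LAMB3, at chr1:209788215-209825770, had all 4 assays there. H3K4me3 of score 3100 spanned 6908 bases at -1.36 to 5.55 kb, and H3K27Ac of score 1660 spanned 15954 bases at -9.25 to 6.71 kb. The H3K4me1 peak of 20821 bases, at -9.67 to 11.2 kb, had a score of 51.4, while 17 of the 26771 peaks in that list were wider, and the FAIRE peak had a height of 106. LAMB3 thus had wide peaks of all 3 histone marks. LAMA3, at chr18:21269417-21536186, had H3K4me3 of score 3100 and 2863 bases at -0.921 to 1.94 kb, H3K27Ac of score 1439 and 3216 bases at -1.14 to 2.07 kb and a FAIRE peak of height 29.6. At its internal starts lay H3K27Ac of score 243 with FAIRE of height 51.3 at 138 to 140 kb, and H3K4me1 of score 54.5 at 181 to 183 kb, with no H3K4me3. The last peak lay at the start of 2 coding transcripts near 184 kb, which had no H3K27Ac either. Which LAMA3 start gives the chain of the basal epithelial laminin was not examined.

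The widest H3K4me3 and H3K27Ac promoter peaks of a laminin gene were at LAMA5, the alpha chain of most epithelial basement membranes, at chr20:60883011-60942368. Its H3K4me3 peak of 16035 bases ran from -3.89 to 12.1 kb with a score of 3100, and 3 of the 18019 H3K4me3 peaks were wider. H3K27Ac of 19127 bases and score 3100 covered it, at -4.55 to 14.6 kb, while the gene had no H3K4me1 or FAIRE peak at any start. LAMC1, the gamma chain of most laminins at chr1:182992555-183114727, had all 4 assays at its MANE start, with H3K4me3 of 5036 bases at -1.77 to 3.27 kb, H3K27Ac of 6199 bases at -2.56 to 3.64 kb, both of score 3100, H3K4me1 of score 306 at 0.194 to 7.71 kb and a FAIRE peak of height 121 at -1.52 to -0.472 kb. LAMB1 and LAMB2, the beta chains of most laminins, had H3K4me3 of score 3100, with H3K27Ac of scores 3100 and 3193, and LAMB1 also had H3K4me1 of score 771 across 13539 bases. LAMA4, the alpha chain of blood vessels and mesenchyme, had H3K4me3 of score 2575 with H3K27Ac of score 182.

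A bare MANE start was found in 4 laminin genes. LAMA1, the alpha chain of early embryos, at chr18:6941741-7117796, was marked at internal starts far from it. H3K4me3 of score 86.1 and H3K27Ac of score 554 lay at 78.2 to 80.3 kb, and H3K27Ac of score 1890, H3K4me1 of score 361 and FAIRE of height 108 lay around 154 to 159 kb. LAMA2, the alpha chain of muscle, had its marks near the far end of the gene. An H3K27Ac peak of score 3100 at 606 to 611 kb lay with H3K4me1 of score 392, H3K4me3 of score 62.6 and FAIRE of heights 85.2 and 82.4. LAMB4 had H3K27Ac of score 62.5 alone, at 62.7 to 64.4 kb, and LAMC3, a gamma chain of few tissues, was the 1 laminin gene with no promoter peak in any list.

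**Figure D2:**
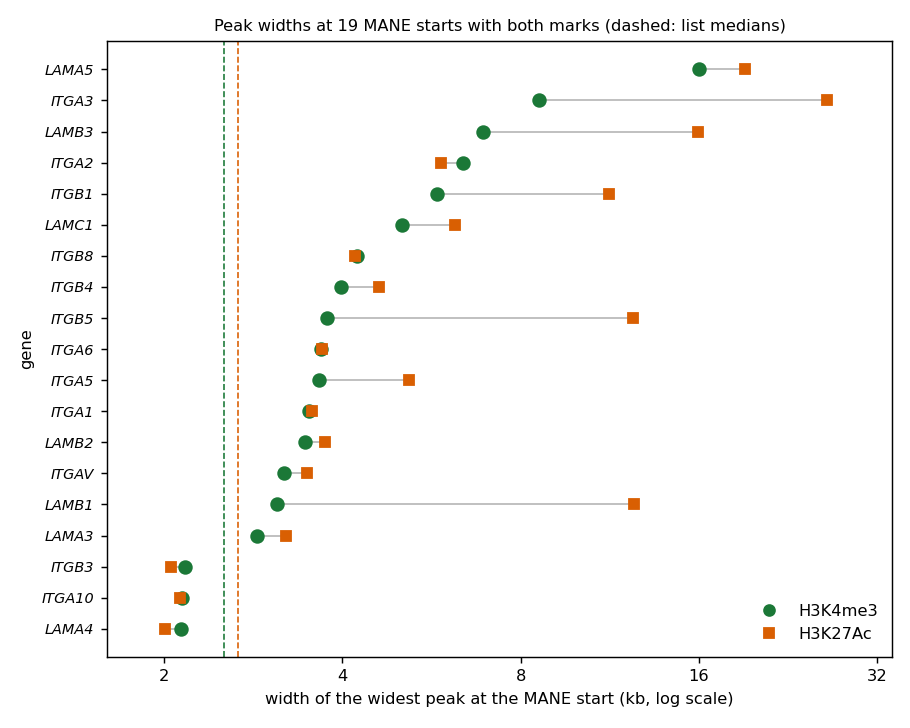
Width in kb, on a log axis, of the widest H3K4me3 peak (circles) and H3K27Ac peak (squares) at the MANE start of 19 of the 20 genes with both, with a line joining the values of a gene and dashed lines at the medians of the lists. LAMA5 has the widest H3K4me3 peak, 16.0 kb, and ITGA3 the widest H3K27Ac peak, 26.4 kb.

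Integrins and laminins act as complexes, so the promoter state was also read by pair and trimer. Of 24 known integrin pairs, 11 had both H3K4me3 and H3K27Ac at the MANE starts of both subunits, 7 at 1 subunit and 6 at neither. The 11 were ITGB1 with ITGA1, ITGA2, ITGA3, ITGA5, ITGA6, ITGA10 or ITGAV, ITGAV with ITGB3, ITGB5 or ITGB8, and ITGA6 with ITGB4. The 6 with neither were the 4 pairs of ITGB2 and the pairs of ITGB7 with ITGA4 or ITGAE. Of 12 laminin trimers, 7 had both marks at all their chains and 5 at some. The 5 were those with LAMA1 or LAMA2 as the alpha chain. Subunits are shared among complexes, so these counts are not independent of each other. No share over pairs or trimers of all genes was computed, while 59.3% of single genes had both marks at the MANE start. The 11 pairs include ITGA10, with low scores of 72.7 for H3K4me3 and 53.7 for H3K27Ac. They also include ITGA1 and ITGB3, whose peaks at the MANE start also lie at promoters of other coding genes.

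Genes that work with integrins had both marks in larger shares than the 52.6% of the integrin and laminin genes, with no test made, while the share of all genes was 59.3%. Of 21 adaptors that link integrins to actin or relay their signals, 18 (85.7%, 63.7 to 97.0) had H3K4me3 and H3K27Ac at the MANE start, among them TLN1 (talin) and ILK with scores of 3100 for both marks. The 3 without were PARVB, TNS1 and FERMT3, the kindlin of blood cells, which had H3K27Ac of score 984 without H3K4me3. Of 14 other basement membrane genes, 11 (78.6%, 49.2 to 95.3) had both marks, including AGRN with scores of 3100, and this interval spans the share of all genes. COL4A1 and COL4A2, COL4A3 and COL4A4, and COL4A5 and COL4A6 are head-to-head pairs with the same scores within a pair, so the 11 genes have fewer separate promoters. COL17A1, a hemidesmosome collagen, and NID1 and NID2, which link laminin to collagen, had neither at the MANE start.

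H3K4me3 at the MANE start went with CpG content, as it did over all genes. H3K4me3 lay at 16 of 20 CpG-rich promoters of the set (80.0%), against 87.2% of CpG-rich promoters of all genes, and at 6 of 18 CpG-poor ones (33.3%), against 21.0%. All 7 leukocyte integrins were CpG-poor, with ratios from 0.152 to 0.339, the highest that of ITGB2, and a median of 0.178. Of the 19 other integrins 14 were CpG-rich, with a group median of 0.728, and of the 12 laminins 6 were, with a median of 0.661. The leukocyte integrins and the other integrins therefore differ in CpG content as well as in H3K4me3, and with no CpG-rich leukocyte integrin the group and its CpG content cannot be told apart. Within CpG-poor promoters H3K4me3 lay at 0 of 7 leukocyte integrins, 2 of 5 other integrins and 4 of 6 laminins. The 2 integrins were ITGA5, at 0.554, and ITGA10, at 0.117, and the 4 laminins included LAMB2, LAMA4 and, with the lowest ratio of the 4, LAMB3 at 0.223. Among CpG-rich promoters 4 lacked H3K4me3, those of ITGA4 at 0.874, ITGA8 at 0.738, LAMA1 at 0.803 and LAMC3 at 0.822.

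**Figure D3:**
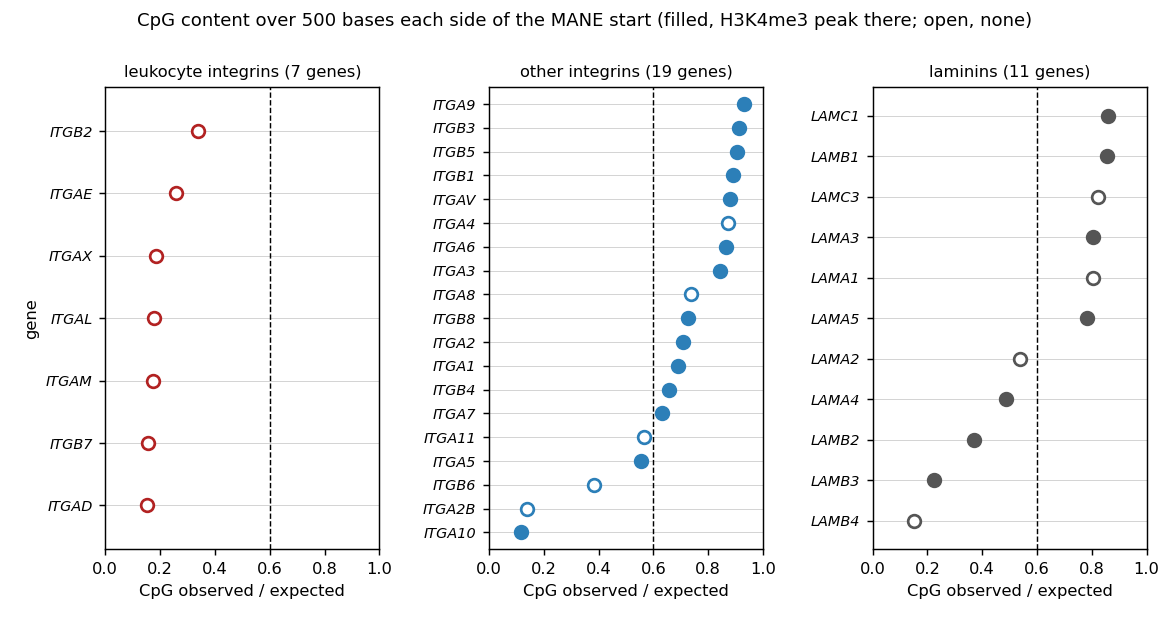
Observed over expected CpG ratio in 500 bases to each side of the MANE start (horizontal axis), 1 point for each of 37 genes, filled where an H3K4me3 peak lies there, with a dashed line at 0.6. All 7 leukocyte integrins lie at or below 0.339 with open points, and LAMB3 is marked at 0.223.

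In the windows of the 38 genes lay 109 distinct H3K4me3 peaks, 187 H3K27Ac peaks, 134 H3K4me1 peaks and 233 FAIRE peaks. At promoters of other coding genes lay 67 of the H3K4me3 peaks and 63 of the H3K27Ac peaks, of which 60 and 55 lay at no start of an integrin or laminin gene and 7 and 8 at such a start as well. The windows of the leukocyte integrins had the largest share of peaks at promoters of other coding genes, which made up 20 of 26 H3K4me3 peaks (76.9%) and 18 of 28 H3K27Ac peaks (64.3%). For the other integrins they made up 32 of 56 (57.1%) and 30 of 102 (29.4%), and for the laminins 15 of 27 (55.6%) and 15 of 57 (26.3%). The median density of H3K4me1 was 0.751 peaks per 100 kb for leukocyte integrins, 1.70 for other integrins and 1.96 for laminins, against 0.810 for all coding genes. For H3K27Ac the medians were 2.59, 3.32 and 2.58 against 2.11, and for FAIRE 3.0, 4.03 and 3.44 against 1.98. For H3K4me3 the leukocyte integrins had the highest median, with 2.74 for leukocyte integrins, 1.25 for other integrins and 0.990 for laminins, against 1.39.

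**Figure D4:**
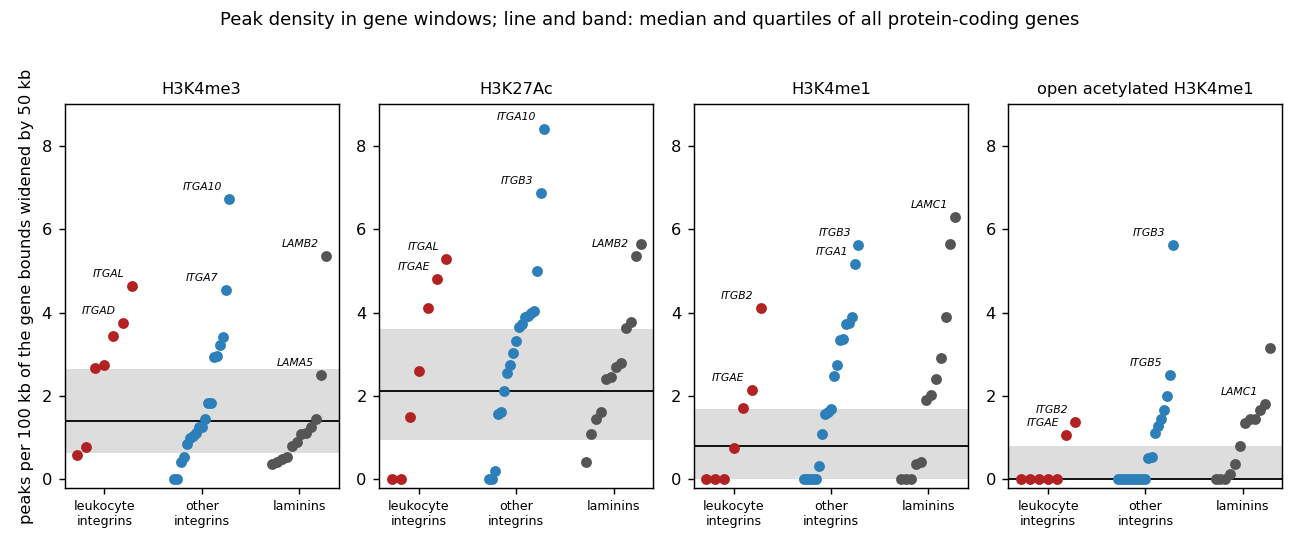
Peaks per 100 kb in the window of each gene (vertical axis) for H3K4me3, H3K27Ac, H3K4me1 and the H3K4me1 peaks that meet H3K27Ac and FAIRE but not H3K4me3, with 1 point for each gene by group, and with a line and band at the median and quartiles of all coding genes. The H3K4me1 medians are 0.751 for leukocyte integrins, 1.70 for other integrins and 1.96 for laminins.

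An H3K4me1 peak that shared no base with H3K4me3 and at least 1 base with both H3K27Ac and FAIRE peaks was called an open acetylated element, the combination typical of an active enhancer. At least 1 lay in the windows of 20 of 38 genes, against 39.2% of all coding genes. By group these were 2 of 7 leukocyte integrins, ITGAE and ITGB2, 9 of 19 other integrins and 9 of 12 laminins. Of the 134 H3K4me1 peaks in the windows 57 were of this kind (42.5%, against 50.2% of the list), 34 met H3K4me3 (25.4% against 15.6%), 24 shared no base with any other list (17.9% against 13.6%), 10 were acetylated without FAIRE (7.46% against 9.36%) and 9 open without H3K27Ac (6.72% against 11.2%). The counts of genes with an element were not adjusted for window length, which was 733 kb for LAMA2 and 112 kb for LAMB2. No test was made against the share of all genes. The windows of ITGA1 and ITGA2 overlap, as do those of LAMB1 and LAMB4, so their counts are not independent.

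ITGB3, at chr17:45331193-45391109, had the most open acetylated elements of the 38 genes, with 9, which were all the H3K4me1 peaks of its window. Over all 20098 genes, 5 had a higher density of such elements. The elements ran from -48.8 to 62.0 kb around the start, and 5 of the 9 lay outside the gene. The tallest FAIRE peaks there had heights of 182 at -13.2 kb and 152 at -28.4 kb, and the H3K27Ac peaks at those places had scores of 2084 and 3230. The promoter of ITGB3 itself had H3K27Ac of score 232 and no FAIRE peak, so higher acetylation scores lay away from the start.

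ITGB6 and ITGA11 had elements beside a bare MANE start. All 4 open acetylated elements of ITGB6, at chr2:160956178-161056824, lay upstream, centred from -7.50 to -42.1 kb, with an H3K27Ac peak of 7792 bases and score 3100 at -7.71 kb and FAIRE heights of 103 and 100 at -7.96 and -5.61 kb. The 3 elements of ITGA11 lay inside the gene at 41.6, 48.1 and 78.4 kb, the last with H3K27Ac of score 3100 and FAIRE heights of 127 and 105. Which genes these elements act on was not measured. Of ITGA4 and ITGA8, by contrast, the windows held 1 peak each, a FAIRE peak of height 23.7 for ITGA4 and an H3K4me1 peak of score 58.1 for ITGA8.

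Among the laminins, the window of LAMC1 held 14 H3K4me1 peaks, a density exceeded by 70 of all genes, of which 4 were open acetylated elements and 8 met no other list. LAMA3 had 5 open acetylated elements in its window, of which 4 lay in introns of LAMA3 at 5.66, 20.8, 29.6 and 173 kb. LAMB3 had 2. ITGB5 had 6, all within the gene, among them an H3K4me1 peak of score 1060 with H3K27Ac of score 3100 at 51.4 kb.

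**Figure D5:**
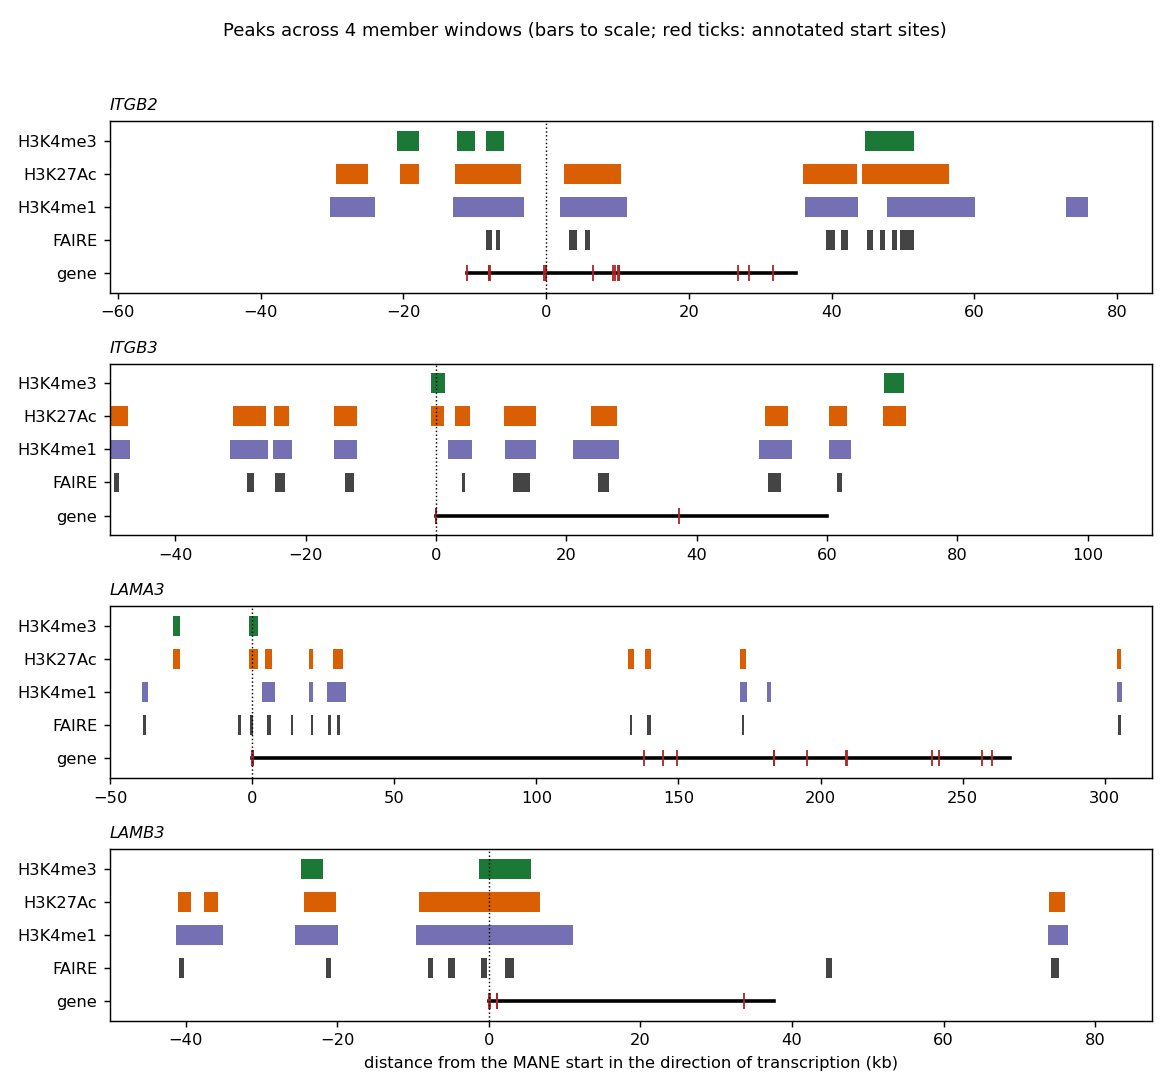
Peaks of the 4 lists around ITGB2, ITGB3, LAMA3 and LAMB3, with distance in kb from the MANE start along the horizontal axis, positive in the direction of transcription, 1 track for each list and red ticks at annotated start sites. ITGB2 has no peak at its MANE start, with H3K4me3 peaks between -12.5 and -5.90 kb, and ITGB3 has 9 H3K4me1 peaks that all meet H3K27Ac and FAIRE.

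The motif TGACTCA shown in the printed elements was about as common near these genes as elsewhere. It lay in the central 300 bases of 54 of 172 FAIRE peaks in the windows away from coding start sites (31.4%), against 34.3% of the 37513 such peaks on chromosomes 1 to 22 and X. At coding start sites it lay in 7 of 61 (11.5%), against 15.5% of 9023. By group the counts away from start sites were 7 of 13 for leukocyte integrins (53.8%), 32 of 100 for other integrins (32.0%) and 15 of 59 for laminins (25.4%). A match describes the sequence only, and no binding was measured.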

How the data were processed

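The authors aligned reads to hg19 with BWA, analysed the replicate assays one by one before combining them, and called histone peaks with MACS and FAIRE peaks with FindPeaks, each against input. The deposited histone lists give a neg log10 p-value score, -10 times the log10 of p, and the deposited FAIRE list gives the signal of each peak as its height. The lists were used as deposited, on chromosomes 1 to 22 and X, and reads were not analysed here. Start sites, gene bounds and MANE tags came from GENCODE v44lift37 and sequence from GRCh37, the build of the peaks. Overlap of at least 1 base was counted with Python 3.11.15, numpy 2.4.6, pandas 2.3.3 and scipy 1.17.1, and drawn with matplotlib 3.10.9. The counting was tested on simulated data against bedtools 2.31.1, with 0 of 3000 sites differing. The members follow from their symbols alone, but that rule and the gene lists were chosen with earlier results of these data known.

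One laminin gene is counted and drawn only in group values and not described here, and 2 genes of the leukocyte list and 1 promoter sequence are not reported here. The leukocyte count covers the other 6 genes of that list. The fullest values are given for the 7 leukocyte integrins, the genes LAMA3 and LAMB3, the receptors ITGA6, ITGB4 and ITGB1, the 5 members with the widest H3K4me3 and the 5 with the tallest FAIRE promoter peak, and members with H3K4me1 but no H3K4me3, and selected scores and distances for the other members described. The lists of adhesion adaptors, basement membrane genes, cell line markers, epithelial or luminal genes and leukocyte genes were counted at the MANE start. Alternatives varied the promoter width, the choice of starts, the overlap rule, the score threshold, the window and the leukocyte group. Starts of MANE transcripts alone were added after seeing the data, as were promoter counts without peaks at promoters of other coding genes and the grouping of promoters by CpG content. Intervals are exact Clopper-Pearson at 95%.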

Additional observations from a re-analysis of the deposited data

How the results depend on the processing

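Of 168 values under alternative settings for 20 counts, 144 lay within 1.5 times the reported count and 24 did not. The settings with such changes take fewer starts, fewer peaks, fewer genes or a stricter overlap, and what lay behind each change was not tested. A count of 2 leaves the limit as soon as it falls to 1. Reported counts are in parentheses. With starts of protein-coding transcripts only, H3K4me3 lay at 1 leukocyte integrin (2) and H3K4me1 at 5 laminins (8). With the 5′ end of the gene bounds only, H3K4me3 lay at 1 leukocyte integrin (2), H3K4me1 at 3 laminins (8) and 10 members (17), and FAIRE at 1 leukocyte integrin (2), 3 laminins (6) and 9 members (14). With the peak centre in the promoter, H3K4me1 lay at 1 other integrin (6), 3 laminins (8) and 7 members (17). At a MACS p of 1e-10 or less, H3K4me1 lay at 5 laminins (8). Over all members the count was then 13 (17), within the limit. That share is 34.2%, with an interval of 19.6 to 51.4, against 11.2% of all genes. This interval lies above the share of all genes. Those with the peak centre in the promoter and with the MANE start only span it. With the MANE start only, chosen after seeing the data, H3K4me3 lay at 0 leukocyte integrins (2), H3K27Ac at 1 (2), H3K4me1 at 3 laminins (8) and 9 members (17), and FAIRE at 1 leukocyte integrin (2), 3 laminins (6) and 9 members (14). With the beta-2 family as the leukocyte group, the counts were 1 for H3K4me3 (2), 1 for H3K27Ac (2), 1 for H3K4me1 (3), 1 for FAIRE (2) and 1 window with an open acetylated element (2). Adding ITGA4 to the leukocyte group changed only the group sizes, to 8 leukocyte and 18 other integrins. ITGA4 had no promoter peak and no open acetylated element, so these 10 values could not change and say nothing about the grouping. No count left the limit of 1.5 times with promoters of 500 bases or 2 kb, FAIRE peaks no lower than the median height, or windows of 20 or 100 kb. The same was true of window counts without peaks at other coding promoters, and of promoter counts without such peaks, a setting added once the data were known.

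The lists used here each combine the replicates of an assay, and the separate libraries were not analysed here, so replicates were not compared. The lists hold only peaks past a threshold, so no signal below it can be read, and the depth that sets this limit is not stated in them. Intervals cover counting over genes and not the variation between libraries. Peaks that several members or neighbouring genes share were counted for each, and transcription was not measured in these lists.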
